A study of Mus musculus with 6 samples.

Results

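The carriers described here are 35 genes of the solute carrier families SLC1, SLC3, SLC6, SLC7, SLC36, SLC38 and SLC43 whose proteins move amino acids across membranes. All probes annotated with one of these symbols were taken, and a probe was called expressed where its detection p was under 0.05 on at least 3 of the 6 arrays. Of the 35 genes, 31 had a probe in the annotation used and 27 had an expressed probe, out of 11097 genes with an expressed probe on the array. They account for 75 of the 45281 probes of the array and for 40 of its 20721 expressed probes.

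RNA of whole retina was measured at postnatal day 8 on Illumina Mouse-WG6 BeadChips, with 3 mice labelled Lrp5-/- and 3 wild type (WT) mice and 1 array per mouse. The Lrp5-/- mice were of the strain B6.129P2-Lrp5tm1Dgen/J, in which the Wnt co-receptor Lrp5 is disrupted in the germline and so in every cell of the retina. The WT mice were C57BL/6J from a separate stock, so the knockout and any other difference between the strains cannot be told apart. The comparison asked which transcripts of the young retina differ when Lrp5 is missing.

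Amino acid carriers set which amino acids a cell can take up, release or exchange. In the retina, carriers of glutamate, glycine and GABA clear transmitters from the extracellular space, and the taurine carrier supplies an amino acid that photoreceptors hold in large amounts. Glutamine, made from glutamate by glia, is passed between cells by sodium-coupled carriers known as system N and system A. Other carriers are paired chains that exchange large neutral or cationic amino acids, also across the endothelium of the blood-retinal barrier.

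The arrays differed in brightness. The mean signal before normalization was 313 to 319 on the arrays labelled Lrp5-/-, 431 and 304 on WT replicates 2 and 3, and lowest on WT replicate 1, which detected 18167 probes against 20286 to 21388 on the others. Its residuals around the group mean had an SD of 0.17 on the log2 scale, against 0.10 to 0.13 on the other arrays. The Lrp5 probe that was detected anywhere, ILMN_2942097, went against the label: the 3 retinas labelled Lrp5-/- gave 99.2, 91.3 and 95.7, above the WT signals of 46.8, 59.5 and 56.1. The other 3 Lrp5 probes were detected on no array, and where the probes lie relative to the disrupted part is not given in the sources used here. Retinal markers were present in both groups: 9 of 11 rod genes, 10 of 12 Müller glia genes and 8 of 10 ganglion cell genes were expressed, and none of these lists had a gene past the test.

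Among the carriers, Slc38a5 stood apart. It was the only one of the 27 expressed genes to pass an adjusted p of 0.05 in the comparison of all 6 arrays, and it fell. Adjusted p-values are from limma with Benjamini-Hochberg adjustment over all 20721 expressed probes, and fold changes are the mean log2 signal of the retinas labelled Lrp5-/- minus that of WT. Of all expressed probes, 0.0869% passed this threshold in the lower direction and 0.029% in the higher direction, against 1 and 0 of the 27 carriers. The other 26 had log2 fold changes from -0.42 to 0.22, and their median of -0.003 lay beside a median of 0.0001 over all expressed probes.

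Slc38a5 is a sodium-coupled system N carrier that takes up glutamine, histidine, asparagine and other small neutral amino acids in exchange for protons. Its single probe, ILMN_2649773, gave 323.2, 452.2 and 517.6 in WT replicates 1, 2 and 3. In the retinas labelled Lrp5-/- it gave 62.9, 55.0 and 63.9. The groups were far apart, and every array labelled Lrp5-/- lay near the lowest signal at which any probe was detected on it (60.1 to 61.7), with replicate 2 below that limit and not detected. The means were 431 ± 98.9 in WT and 60.6 ± 4.88 in the retinas labelled Lrp5-/- (SD, n = 3 each). The log2 fold change was -2.81, with a standard error of 0.15, a 95% interval from -3.14 to -2.47 and an adjusted p of 8.4e-06.

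**Figure D1:**
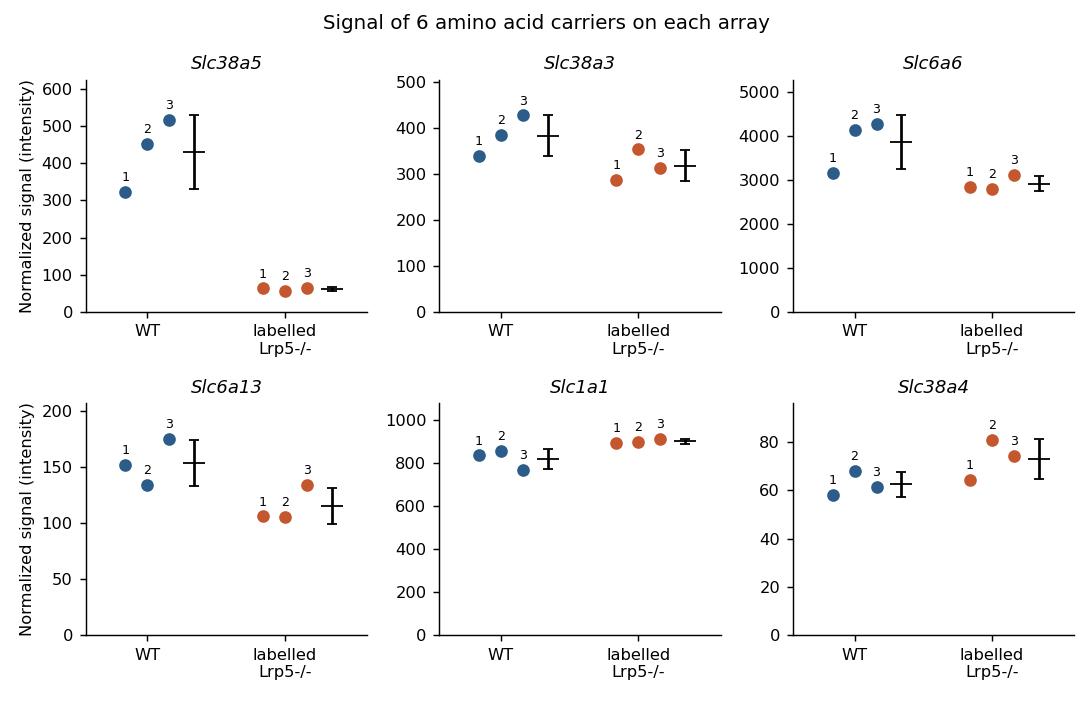
Normalized signal (linear axes starting at 0) of 6 carriers on each array, with points numbered by replicate, WT in blue, the arrays labelled Lrp5-/- in orange, and the bar showing mean ± SD of 3 mice. The 3 points of Slc38a5 labelled Lrp5-/- sit between 55.0 and 63.9, far below its 3 WT points, and in the other 5 panels the groups lie close together or overlap.

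Among all expressed probes, 1 had a lower log2 fold change than Slc38a5, that of the tight junction gene Cldn5, and Slc38a5 ranked 3 by p-value. Because the signal keeps its background, the size of the fall depended on how the background was handled. It was -3.79 after normexp background correction and quantile normalization (neqc, adjusted p = 3.1e-05) and -2.10 when 50 was added to each signal (adjusted p = 0.00115). Without WT replicate 1 it was -3.00. Scaling each array to a common median over all probes, most of which are at background, left the fall at -2.71 but widened its interval to -3.52 to -1.91, and the adjusted p was then 0.721. Scaling to the median of the expressed probes, an alternative chosen after seeing the data, gave -2.84 with an adjusted p of 0.000106.

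The promoter of Slc38a5 is shown because this is the carrier whose transcript fell. The 250 bases before the gene's start in RefSeq (GRCm38.p6, chrX:8271131-8271380, plus strand, written 5′ to 3′) are given with capitals marking a CACGTG, the letters of the E-box core.
Slc38a5 upstream: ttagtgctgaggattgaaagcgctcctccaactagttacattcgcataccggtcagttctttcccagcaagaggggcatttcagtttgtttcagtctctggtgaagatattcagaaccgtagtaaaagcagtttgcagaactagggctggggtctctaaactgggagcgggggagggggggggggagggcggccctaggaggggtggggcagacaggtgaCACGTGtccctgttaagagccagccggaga
The CACGTG begins 30 bases before the start, and the stretch is 55.2% G and C, against a median of 52.4% over all windows. These letters were searched on both strands of 32851 promoter windows of 300 bases, namely CTTTGAT or CTTTGTT, the core letters of TCF/LEF sites, CACGTG, and TGATGNAA, the letters of the composite site of ATF4 and C/EBP. The 27 carriers with a window have 41 in all. The TCF/LEF letters were in 9.33% of all windows and in 7 of the 41 carrier windows, or 17.1% (Slc1a2, Slc3a1, Slc6a9, Slc7a1, Slc7a11, Slc38a9 and Slc38a10), and none of these windows was of Slc38a5. CACGTG was in 7.15% of all windows and in 4 carrier windows, or 9.76% (Slc36a1, Slc38a5, Slc38a7 and Slc43a1). TGATGNAA was in 3.97% of all windows and also in 4 carrier windows, or 9.76% (Slc1a4, Slc7a7 and Slc7a11). These matches describe letters in a window and are not evidence of a bound site.

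Slc38a5 was set beside genes of endothelium, since the study describes vascular defects in Lrp5-/- retinas and since most expressed pan-endothelial markers were also lower. The study places Slc38a5 in endothelial cells, Müller glia and ganglion cells. In which of these it fell was not tested. Of 23 pan-endothelial genes 17 were expressed. Groups did not overlap and were lower in the retinas labelled Lrp5-/- for 14 of the 17, against 4.96% of all expressed probes. The 14 include Vwf, which was detected in WT alone. Cd93 passed the test and fell, with a log2 fold change of -0.90. Their summed signal was 2443.8 to 2768.3 in those retinas and 3362.4 to 4153.6 in WT, and their median log2 fold change was -0.42. Emcn, the sialomucin endomucin, was the one with the groups apart in the higher direction, against 5.74% of all expressed probes. Tie1, Cd34, Erg, Sox17, Clec14a and Ecscr were not expressed. In whole retina, fewer endothelial cells and less of a transcript in each cell cannot be told apart.

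Relative to the mean log2 signal of the 17 genes on the same array, Slc38a5 stood at 1.15, 1.47 and 1.55 in WT and at -0.96, -1.11 and -0.80 in the retinas labelled Lrp5-/-. The groups did not overlap, and a difference of -2.35 in signal remained after the mean of the 17 genes, which itself differed by -0.46, had been taken off (exact two-sided permutation test, p = 0.1, the smallest that 3 against 3 allows). Groups of 3 that do not overlap always give this p, so here and below the test adds nothing to that. Several of the 17 genes were dim, with WT means of 65.8 for Kdr and 76.5 for Eng, and probes near background understate changes. Slc38a5 was itself near background in the retinas labelled Lrp5-/-. The difference is therefore one of signal, and it was -3.16 with neqc and -1.76 with 50 added. Against 7 expressed genes of barrier endothelium, of 15 listed, the values were -0.35, 0.26 and 0.23 in WT and -1.80, -1.96 and -1.76 in the retinas labelled Lrp5-/-. This difference was -1.88 (exact two-sided permutation test, p = 0.1), and the mean of the 7 genes differed by -0.92. Of the 7, 3 passed the test and fell, against 0.0869% of all expressed probes. They were Cldn5 (-3.16), the lysolipid carrier Mfsd2a (-1.71) and the transcription factor Foxq1. The others did not pass: Apcdd1 was at -0.31, Slco1a4 at -0.13, Tfrc at 0.05 and Slc2a1 at 0.07. The median log2 fold change of the list was -0.31. Slco1c1, Abcb1a, Abcg2, Slc16a1, Ocln, Lsr, Slc22a8 and Lef1 were not expressed. Foxq1 was detected on none of the arrays labelled Lrp5-/- and so passed the detection filter through WT alone; it was at least 1.90-fold lower, with each of those arrays taken at its dimmest detected signal. The same held for the pan-endothelial gene Vwf, at least 2.24-fold lower, which did not pass the test (adjusted p = 0.10). With the listed genes that were detected in both groups, an alternative chosen after seeing the data, the difference of Slc38a5 was -2.40 against 16 pan-endothelial genes and -1.94 against 6 of barrier endothelium (exact two-sided permutation test, p = 0.1 each). Of the 22 genes detected in both groups, 1 (Cldn5) had a lower log2 fold change than Slc38a5. The lists hold genes that were already known to differ on these arrays, so they are a yardstick and not independent evidence.

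**Figure D2:**
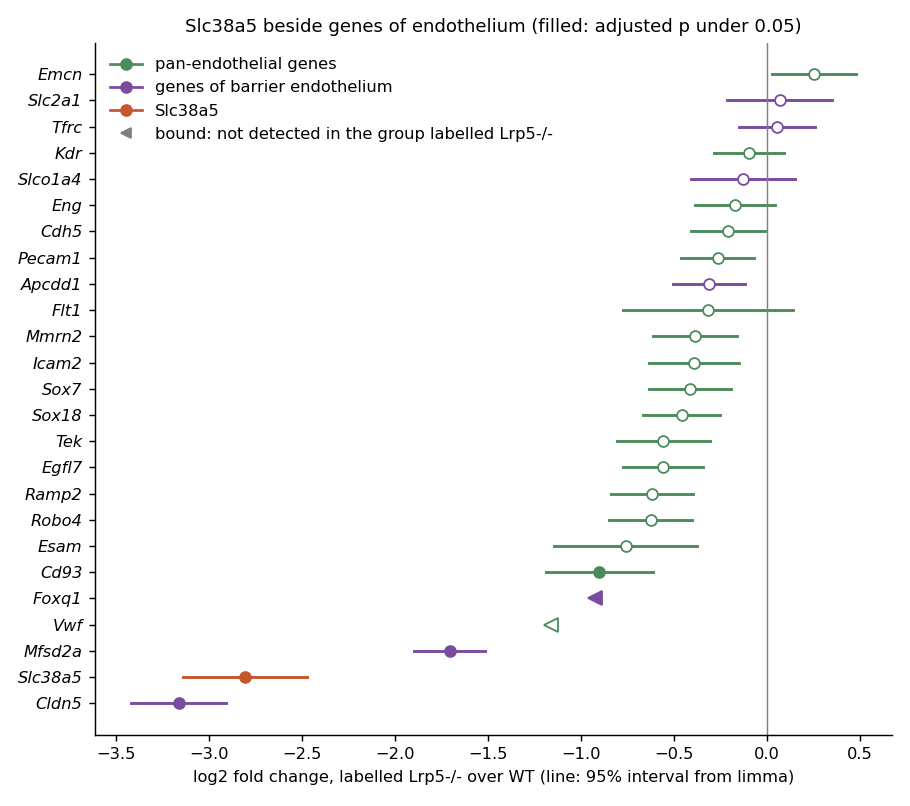
Log2 fold change (retinas labelled Lrp5-/- over WT, 3 mice each) with its 95% interval for Slc38a5 and for 24 expressed genes of endothelium, ordered by value, with filled symbols at an adjusted p under 0.05 and triangles for the bounds of Foxq1 and Vwf. Slc38a5 at -2.81 lies between Cldn5 at -3.16 and Mfsd2a at -1.71, and most pan-endothelial genes lie between -0.90 and 0.

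Slc38a3, the other system N carrier and a glutamine carrier of Müller glia, did not share that fall. Its probe ILMN_2750089 gave 338.7, 384.7 and 427.8 in WT and 286.4, 353.5 and 313.9 in the retinas labelled Lrp5-/-. WT replicate 1 lay below replicate 2 of those retinas, so the groups overlapped. The log2 fold change was -0.27 (95% interval -0.52 to -0.02, adjusted p = 0.987), and across leaving out each array it ran from -0.36 to -0.19. Of 12 Müller glia genes 10 were expressed, with a median log2 fold change of -0.03, and their summed signal was 12625.3 to 13165.1 in the retinas labelled Lrp5-/- and 11510.7 to 13474.2 in WT. Of the 10, 5 were below 0 and 5 above. Glul (-0.34) and Hes1 (-0.25) had an unadjusted limma p under 0.05, against 4.85% of all expressed probes. Hes1 alone had groups that did not overlap, against 4.96% of all expressed probes in that direction.

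The 3 system A carriers, which import small neutral amino acids with sodium, did not pass the test. On their brightest probes all had log2 fold changes above 0, while the other expressed probes of Slc38a2 were below 0. Counting brightest probes, Slc38a4 had the highest log2 fold change of any carrier, 0.22 (95% interval -0.02 to 0.46, adjusted p = 0.987). Its signals were 58.1, 68.2 and 61.3 in WT and 64.2, 80.7 and 74.1 in the retinas labelled Lrp5-/-. These overlapped, and WT replicate 1 was below detection. Slc38a1, a glutamine carrier of neurons, had 197 ± 23.1 in WT and 203 ± 19.0 in the retinas labelled Lrp5-/- (SD, n = 3 each), with fold changes of 0.05, 0.11 and 0.22 from its 3 expressed probes.

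Slc38a2, a system A carrier whose transcript is known to rise when amino acids are scarce, was the only carrier whose expressed probes lay more than 0.3 apart. Its brightest probe, ILMN_1244123, gave 1444.5, 1218.5 and 907.5 in WT and 1228.5, 1279.0 and 1272.1 in the retinas labelled Lrp5-/-, for a log2 fold change of 0.11. The probe ILMN_2955671 gave 478.6, 614.2 and 544.3 in WT and 423.4, 395.4 and 592.1 in the retinas labelled Lrp5-/-, for a log2 fold change of -0.23. Both pairs of groups overlapped, and the third probe (ILMN_2721692) was at -0.14, so no direction can be given for this gene. The remaining SLC38 members were close to 0: Slc38a7, a glutamine carrier of lysosomes, at 0.00, Slc38a9, which senses lysosomal arginine, at -0.01, and Slc38a10 at 0.04.

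Of the SLC6 carriers, which couple uptake to sodium and chloride, all 6 were expressed and none passed the test. Slc6a6, the taurine carrier, gave 3168.3, 4151.3 and 4290.1 in WT. In the retinas labelled Lrp5-/- it gave 2837.0, 2807.9 and 3113.6. The groups did not overlap, but WT replicate 1 lay close to the highest array of the other group. The log2 fold change was -0.40 (95% interval -0.66 to -0.13, adjusted p = 0.757). The adjusted p depended on how the arrays were used: without WT replicate 1 the log2 fold change was -0.53 with an adjusted p of 0.0297. With array weights, which let noisier arrays count less, it was -0.49 with an adjusted p of 0.0392. Calls over all expressed probes also rose, from 18 lower and 6 higher to 62 and 23 without WT replicate 1 and to 74 and 24 with array weights. Leaving out WT replicate 3 gave -0.31.

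Slc6a13, a carrier of GABA and taurine, gave 151.4, 134.2 and 175.0 in WT and 105.9, 105.7 and 133.7 in the retinas labelled Lrp5-/-. The groups did not overlap, although their nearest arrays were almost level, and the log2 fold change was -0.42 (95% interval -0.69 to -0.14, adjusted p = 0.734). Most expressed markers of pigment epithelium and melanocytes varied in the same arrays. Within groups, replicate 3 labelled Lrp5-/- was highest and WT replicate 2 lowest for both Slc6a13 and Ttr, the transthyretin gene. Ttr gave 904.0, 856.0 and 1971.4 under the knockout label, against WT signals of 2018.8, 704.5 and 2498.6. Pmel, Tyrp1, Dct, Rgr and Mitf shared this order. Best1 did not, with replicate 3 labelled Lrp5-/- lowest of its group at 58.2. Between groups, WT replicate 2 was the lowest of all 6 arrays for Ttr, Pmel and Mitf. For Tyrp1 and Dct it lay above replicates 1 and 2 labelled Lrp5-/-, and for Rgr above replicate 2 alone. For Slc6a13 it lay above every array labelled Lrp5-/-, the nearest at 133.7 against its 134.2. Of 12 such markers 7 were expressed, with a median log2 fold change of -0.46 and none past the test. Their summed signal was 1744.8 to 3607.2 in the retinas labelled Lrp5-/- and 1688.3 to 4723.3 in WT, and Rpe65, Mlana, Tyr, Lrat and Slc45a2 were not expressed. The part of these cells in the Slc6a13 values was not tested.

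The other SLC6 members had smaller differences. Slc6a9, the glial and amacrine glycine carrier, had 2702 ± 473 in WT and 2644 ± 126 in the retinas labelled Lrp5-/- (SD, n = 3 each), a log2 fold change of -0.02 with an interval of -0.29 to 0.25. Slc6a11, a GABA carrier, was at -0.10, Slc6a15, a carrier of branched-chain and other neutral amino acids, at 0.01, and Slc6a17, which loads neutral amino acids into synaptic vesicles, at 0.02. The dimmer probes of Slc6a15 gave 0.09 and -0.17.

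Among the SLC1 carriers, the glutamate carrier of Müller glia, Slc1a3, had 7145 ± 745 in WT and 6967 ± 523 in the retinas labelled Lrp5-/- (SD, n = 3 each). Its log2 fold change was -0.03, with a 95% interval from -0.26 to 0.20. Slc1a2, which clears glutamate in cones and bipolar cells, was at -0.12 on its brightest probe, with overlapping groups, and at -0.19 on another. The remaining expressed probe, ILMN_3076439, had groups that did not overlap in the opposite direction, with 148.1, 146.6 and 148.9 in WT and 159.6, 153.1 and 158.9 in the retinas labelled Lrp5-/-, for a log2 fold change of 0.09 (adjusted p = 0.987). No direction can therefore be given for Slc1a2. Slc1a4, which exchanges alanine, serine and cysteine, was at -0.04. Slc1a1, the glutamate and cysteine carrier of neurons, was the only carrier whose brightest probe had its groups apart in the higher direction. It gave 835.7, 854.9 and 767.0 in WT and 892.3, 898.3 and 912.9 in the retinas labelled Lrp5-/-, for a log2 fold change of 0.14 (95% interval -0.05 to 0.33, adjusted p = 0.987). A dimmer probe of the gene, ILMN_1229397, had overlapping groups and a log2 fold change of -0.11, so the direction depended on the probe.

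Slc3a2, the heavy chain that brings the light chains of SLC7 to the cell surface, had 82.0 ± 21.4 in WT and 81.0 ± 7.15 in the retinas labelled Lrp5-/- (SD, n = 3 each). Its log2 fold change of 0.01 had the widest interval of the 27 carriers, from -0.36 to 0.38. WT replicate 1 was below detection at 58.7 and the other WT arrays were at 86.4 and 100.9. Of the light chains, Slc7a6 was at 0.07, Slc7a7 at 0.11, Slc7a8 at 0.01 and the cystine and glutamate exchanger Slc7a11 at -0.11. Slc7a7, an exchanger of cationic for neutral amino acids, gave 50.7, 64.9 and 60.9 in WT and 63.4, 64.7 and 61.9 in the retinas labelled Lrp5-/-, which overlapped. A dimmer probe of Slc7a8, an exchanger of neutral amino acids, had groups that did not overlap, with 50.1, 68.9 and 68.5 in WT and 86.2, 73.9 and 69.7 in the retinas labelled Lrp5-/-. Its log2 fold change was 0.30 (adjusted p = 0.987), and WT replicate 1 was below detection.

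The cationic carriers Slc7a2 and Slc7a3, which take up arginine, lysine and ornithine, were at -0.09 and 0.04. Slc43a1 and Slc43a2, sodium-independent carriers of large neutral amino acids, were at -0.06 and -0.10. Another 4 genes had probes but were not expressed: the glutamine exchanger Slc1a5, the arginine carrier Slc7a1, the small neutral exchanger Slc7a10 and the proton-coupled Slc36a1, whose 9 probes lay between 39.3 and 57.9. Their levels could not be told from background on these arrays. Slc3a1, Slc7a5, Slc36a4 and Slc38a6 had no probe under their symbols and were not analysed here.

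**Figure D3:**
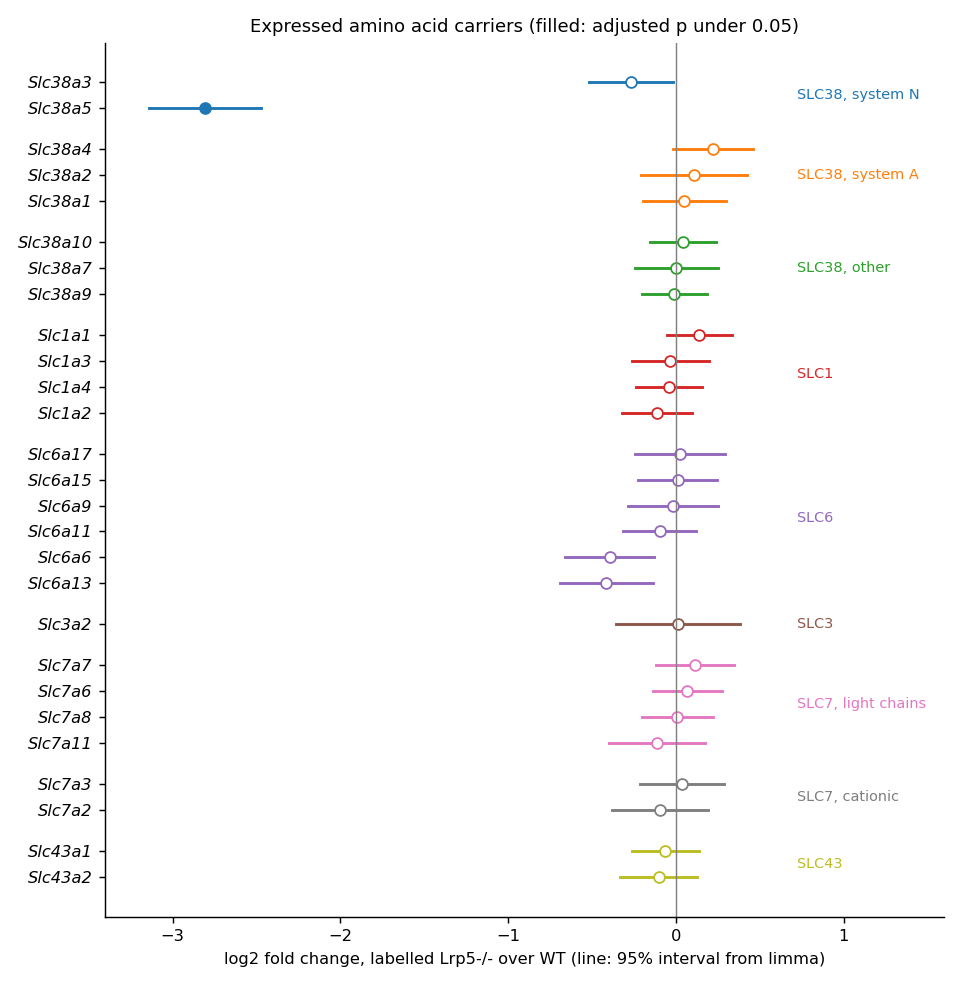
Log2 fold change (retinas labelled Lrp5-/- over WT, 3 mice each) of the 27 expressed carriers, grouped by family and role, with lines for the 95% interval from limma and a filled point at an adjusted p under 0.05. Slc38a5 is the only filled point, at -2.81, and the other 26 lie between -0.42 and 0.22.

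Counted without adjustment, 4 of the 27 carriers had a p under 0.05 (Slc38a5, Slc38a3, Slc6a6 and Slc6a13), all lower, against 4.85% of all expressed probes. Groups did not overlap and were lower for 3 carriers (Slc38a5, Slc6a6 and Slc6a13) against 4.96% of all expressed probes, and were higher for 1 (Slc1a1) against 5.74%, counting the brightest probe of each carrier. Without Slc38a5, 13 carriers were below 0 and 13 above it on their brightest probe. Of the 8 genes with more than 1 expressed probe, 5 had probes of both signs. The 95% interval of the signal lay within 1.5-fold either way for 24 of the 27 carriers and within 2-fold for 26. It reached, in the median, 0.24 to either side on the log2 scale. Because the signal keeps its background, these intervals do not bound the change in transcript for dim probes. With neqc, the interval of Slc3a2 ran from -0.59 to 0.76 and that of Slc38a4 from 0.01 to 0.82.

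The spread of the carriers was wider in WT. The median SD of the log2 signal over the carriers was 0.176 in WT, 0.115 in WT replicates 2 and 3 alone, and 0.077 in the retinas labelled Lrp5-/-. Of the 27, 21 were detected on all 6 arrays, 5 on 5 arrays and 1 (Slc7a2) on 4, and 4 of the 5 were missed on WT replicate 1. Without that array, 2 carriers passed the test, Slc38a5 and Slc6a6, both lower. Calls over all 20721 expressed probes rose at the same time, from 18 lower and 6 higher to 62 and 23. Of the 26 carriers other than Slc38a5, 9 changed sign, the largest of which had a log2 fold change of -0.11 with all arrays.

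**Figure D4:**
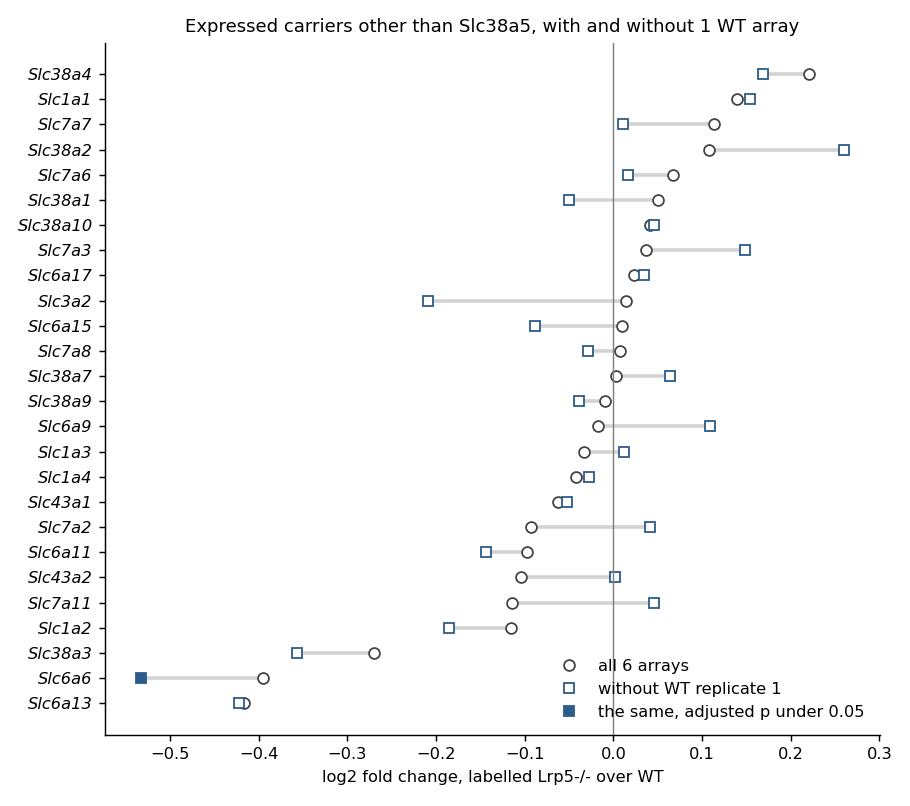
Log2 fold change of the 26 expressed carriers other than Slc38a5 with all 6 arrays (circles) and without WT replicate 1 (squares), ordered by the value with all arrays, with a filled square at an adjusted p under 0.05. Slc6a6 moves from -0.40 to -0.53 and is the only filled square, while 9 carriers near 0 cross it.

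Genes around the carriers were counted from lists chosen for their role. Of 33 other amino acid carriers (vesicular, mitochondrial and further plasma membrane carriers), 17 were expressed, none passed the test or an unadjusted p of 0.05, and their median log2 fold change was -0.02. The smallest p-values belonged to the retinal glutamate carrier Slc1a7 (-0.18), the aromatic amino acid carrier Slc16a10 (-0.22) and the mitochondrial glutamate carrier Slc25a18 (-0.15).

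Of 33 enzymes of glutamine, glutamate, GABA, serine and glycine, 25 were expressed and none passed the test, with a median of -0.04. Asns, which makes asparagine from aspartate and glutamine, gave 1353.8, 1254.6 and 1388.9 in WT and 1695.0, 1575.2 and 1440.3 in the retinas labelled Lrp5-/-. Its groups did not overlap, and its log2 fold change was 0.24 (95% interval 0.02 to 0.45, adjusted p = 0.983). Glul, the glutamine synthetase of Müller glia, was at -0.34 on a dim probe (60.8 to 100.9 over the 6 arrays) with overlapping groups, and the alanine transaminase Gpt2 at -0.18.

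Of 29 genes of the amino acid starvation response and of amino acid sensing, 27 were expressed and none passed the test. Their median log2 fold change was 0.03, with 19 above 0 and 8 below, against 10371 and 10350 of all expressed probes. An unadjusted limma p under 0.05 was reached by 1 of the 27 (Ddit4), against 4.85% of all expressed probes. Groups did not overlap for Castor1, lower, and for Atf5, higher, against 4.96% and 5.74% of all expressed probes. Ddit4, a stress-induced inhibitor of mTOR signalling, gave 1320.6, 1091.2 and 1075.9 in WT and 1209.2, 1495.0 and 1559.0 in the retinas labelled Lrp5-/-, which overlapped. Its log2 fold change was 0.29 (95% interval 0.02 to 0.55, adjusted p = 0.987). Castor1, a cytosolic arginine sensor, was at -0.18 and Chac1, a glutathione-degrading enzyme of the stress response, at 0.20.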

How the data were processed

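The authors labelled retinal cRNA with biotin, scanned the arrays and normalized them with the rank invariant algorithm in Bead Studio. The deposited signal intensity is linear, with its background kept. A deposited detection p-value, per probe and array, sets the signal against negative control beads. The tables hold none of the authors' own comparisons. Of 45281 probes, 34885 had 1 gene symbol in the platform annotation, 18 several and 10378 none here.

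A floor of 16 (reached by 1 value) was applied before the log2 transformation. Expressed probes (20721) were fitted with limma 3.58.1 (lmFit and eBayes) in R 4.3.3, with Benjamini-Hochberg adjustment over all of them, after a check on simulated data. A gene is given by its expressed probe of highest mean log2 signal. The members and lists were chosen with earlier results of these data known. Values on every array are given for both system N carriers, the 3 carriers with the largest log2 fold change in each direction, those whose groups do not overlap and those whose probes lie over 0.3 apart. Each pathway list names up to 3 genes of smallest p. Further marker lists had no gene past the test: astrocytes (median -0.12), mural cells (-0.12), microglia (-0.05), bipolar cells (-0.02), amacrine and horizontal cells (-0.01), red blood cells (-0.11), lens (0.30) and, as given above, rods (-0.11) and ganglion cells (0.04). SAM, which the study used, was not run, and no slide block was possible because the tables name no slide. Promoter sequences are from RefSeq (GRCm38.p6), where 27 of the 35 carriers had a window and Slc38a3 did not.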

Additional observations from a re-analysis of the deposited data

How the results depend on the processing

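Array number and signal over background limit the precision, and probes near background understate changes. Slc38a5 was lower under every setting that tested its probe. Detection on all 6 arrays left that probe untested and called 0 carriers. The common median over all probes called 0 (Slc38a5 -2.71, adjusted p = 0.721) and moved the carriers' median to 0.11, beside a median of 0.12 over all probes. Non-normalized signals gave a median of 0.027. A 2-sample t-test, which the methods name as a general post test and not for the arrays, called 1 carrier at a p under 0.05 with a 1.3-fold change, and after Benjamini-Hochberg adjustment 0 (Slc38a5 -2.81, adjusted p = 0.383); the cause was not tested. Array weights called 2 carriers, as did leaving out WT replicate 1, also with the filter recomputed on the 5 arrays, chosen after seeing the data. Relative to the pan-endothelial genes, Slc38a5 was at -3.16 with neqc, -1.76 with 50 added and -2.54 with that recomputed filter. Leaving out each array gave 1 to 2 carriers called lower, -3.00 to -2.66 for Slc38a5 and -0.034 to 0.002 for the median. With the replicate number as a block, 1 carrier was called (Slc38a5 -2.81, adjusted p = 7.08e-05), and calls over all probes went from 18 lower and 6 higher to 11 and 2. Same-numbered arrays did not deviate together from their group means (r = -0.21, -0.15 and -0.28). The labels do not say whether the numbers pair the mice, and correlations over so few arrays cannot decide it. Calls over all probes were 74 lower and 24 higher with array weights, 62 and 23 without WT replicate 1, 2 and 0 with non-normalized signals and 0 and 0 with the common median.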
